A study of Arabidopsis thaliana with 6 samples.

Results

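The 10 min response of the crushed leaf was measured by setting wounded leaves, called local leaves here, against leaves of unwounded plants. These samples make up 4 of the 6 arrays of the series, 2 of local and 2 of control leaves, and were chosen by their sample titles. The samples of both groups came from Arabidopsis thaliana, the small crucifer used as a model plant, of an ecotype that the labels spell Colombia, with no mutation or transgene named. The plants were 5 weeks old and had been kept in soil at 21 °C with 10 h of light and 14 h of darkness. In local leaves the midvein of 3 rosette leaves per plant had been crushed with tweezers, and the wounded leaves of 3 plants were pooled 10 min later. Control leaves were pooled from 3 plants that had not been wounded. The labels call the 2 pools of a group biological replicates, so variation between single plants is not seen, and the number of arrays limits the precision of every value. The systemic arrays of the series, from unwounded leaves of wounded plants, entered the estimate of the spread and are not described.

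A crushed leaf answers within minutes. Broken cells release glutamate and other contents, glutamate receptor-like channels and cytosolic calcium carry the alarm along the veins, and calmodulin-like proteins, kinases and reactive oxygen species relay it inside cells. Jasmonate, a hormone made from membrane lipids, then accumulates and switches on defences against chewing insects, while genes of growth are often turned down.

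Levels are log2 values that the authors made with the RMA method, in which a difference of 1 is a 2-fold change. Differences are local minus control, given with the standard error of a model fitted by limma across all arrays, and a probe set was called where its p-value, corrected by the Benjamini-Hochberg method for the 22746 probe sets tested, was under 0.05. Of these probe sets, 5374 (23.6%) were called, 2257 (9.92%) higher and 3117 (13.7%) lower in local leaves. Local and control arrays did not overlap in 59.3% of all probe sets. Over the table by gene, as used for the lists, they did not overlap in 56.7%, with local above control in 22.5% and below it in 34.1%. Over the 13355 genes with a probe set of their own, each represented by its brightest, 21% were called, 8.72% higher and 12.2% lower (2.87% and 1.22% by at least 2-fold), and the median difference was -0.03. The shares of each gene list are to be read against these. Beside many of the lists stands the number of calls that passed the threshold with each of the 4 arrays left out in turn.

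The replicates of a group correlated across probe sets at r = 0.997 in local and 0.995 in control leaves, and the median SD between them was 0.0770 in local and 0.0850 in control leaves. The ubiquitin control probe sets, in which a larger gap between the 3′ and the 5′ end points to more degraded RNA, gave a gap of 0.97 and 1.05 in local and 1.33 and 1.25 in control leaves, so that these groups did not overlap. The actin control gave 1.77 and 1.53 in local and 1.71 and 1.27 in control leaves, and a GAPDH control 1.28 and 1.03 in local and 1.09 and 0.97 in control leaves. In both of these the groups overlapped and the mean gap was larger in local leaves. A second GAPDH control went the other way, with 0.32 and 0.07 in local and 0.43 and 0.22 in control leaves, again with overlap. A second ubiquitin control gave -0.15 and -0.24 in local and -0.04 and -0.08 in control leaves, without overlap. The part of RNA quality in the results below was not tested. The leaf label was checked against mesophyll markers, of which RCA (rubisco activase), LHCB4.1 and LHCB4.2 (light-harvesting proteins) had levels of 14.60, 14.20 and 14.10 in local and 14.57, 14.26 and 14.20 in control leaves. None of the 4 mesophyll markers was called by limma at an adjusted p under 0.05, nor at an unadjusted one. Of the markers of other cells, SPCH of the stomatal lineage, all 3 aurora kinases of dividing cells and PYK10, known best from roots and seedlings, were lower in local leaves. The 2 other markers of guard cells and their lineage differed by -0.32 and -0.29 and were not called. The phloem marker SWEET11 was higher, while GLR3.3, the other phloem marker, both xylem markers, the trichome marker TRY and the root hair expansins EXPA7 and EXPA18 were not called. In a pool of leaves, fewer cells of a type and less RNA per cell cannot be told apart.

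The response was lopsided by size. Among probe sets called higher, 65 rose by at least 4 on the log2 scale, 63 by 3 to 4, 137 by 2 to 3, 483 by 1 to 2 and 1509 by less than 1. Among those called lower, 16 fell by at least 3, 51 by 2 to 3, 328 by 1 to 2 and 2722 by less than 1. Small falls therefore outnumbered small rises, and large rises outnumbered large falls: at least a 2-fold change was seen in 748 rises (3.29% of probe sets) and 395 falls (1.74%). The 65 strongest rises ended at high levels, with a median level of 10.53 in local and 5.25 in control leaves, and 7 of them had a control mean below the lower quartile of the control arrays (4.45). Below that level a value cannot be told from background, so the size of those rises may be understated.

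**Figure D1:**
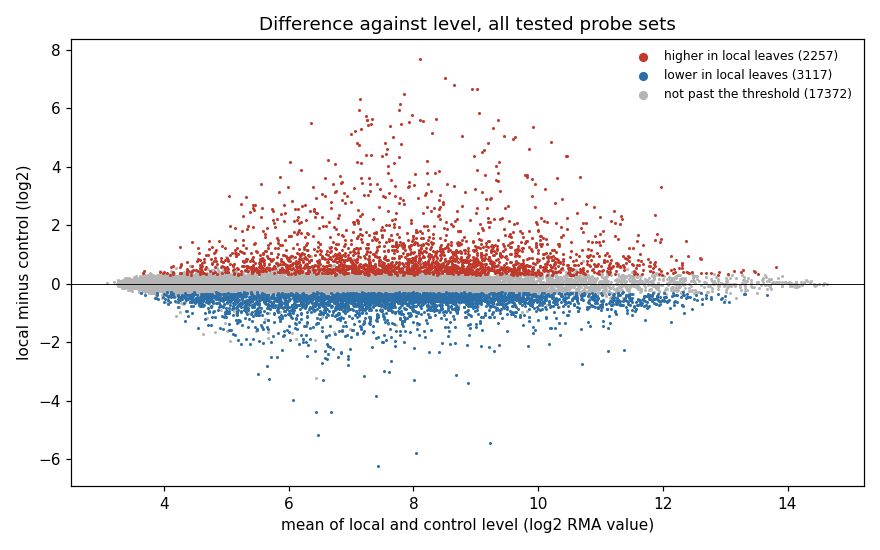
Local minus control difference (log2, vertical axis) against the mean of the local and control levels (log2 RMA value, horizontal axis) for all 22746 tested probe sets. Red points are the 2257 probe sets called higher, blue points the 3117 called lower in local leaves and grey points those not past the threshold; rises reach further from 0 than falls, and small falls are more numerous than small rises.

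Calls were scarce among dim probe sets. Of the 5687 dimmest probe sets 0.492% were called higher and 1.34% lower, against 18.9% and 21.1% of the 5687 brightest. Which direction was more frequent depended on the scaling between arrays. Rises made up 42.0% of the calls with the deposited values, 47.4% after each array was centred on its median and 54.8% after cyclic loess, which gave 2806 rises and 2315 falls. The count of rises was 1437 and that of falls 1386 without local replicate 1, and falls numbered 2077 without control replicate 1.

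Genes named only by their locus made up most of the extremes. Differences of the 15 largest rises with 1 gene lay between 5.40 and 6.79, and those of ranks 16 to 40 between 3.61 and 5.20. Of these 25, 4 carry a symbol, and they are PUB23, PUB19, XTH18 and EXO. The 10 largest falls lay between -5.46 and -2.58, and ranks 11 to 30 between -2.57 and -1.90, with LTI30, EXPA8, SBT1.3, LCR69, ATLP-1 and 3xHMG-box2 as the genes with a symbol. In all, 1557 of the genes carry a symbol, of which 168 were higher and 246 lower, and the gene groups that follow consist almost entirely of these. The measured members of a list are those matched by name, and relatives without a matching name are not counted.

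Among transcription factors, STZ, ORA47, AT1G33760 and AT1G19210 rose steeply, 2 WRKY factors rose, and the bZIP and bHLH families held both rises and falls. AT1G33760 and AT1G19210, AP2/ERF factors without a symbol and so outside the AP2/ERF list, rose by 5.73 ± 0.52 and 5.62 ± 0.26. STZ, a C2H2 zinc finger repressor of stress responses, had levels of 11.97 and 12.11 in local and 5.42 and 5.09 in control leaves, and ORA47, an AP2/ERF factor that activates jasmonate synthesis genes, had 12.21 and 12.35 in local and 5.77 and 5.45 in control leaves. In both genes the local arrays lay far above the control arrays, and the replicates lay close together. Of 7 measured WRKY factors, 2 rose and none fell, with a median difference of 0.01 over the list. WRKY53, a regulator of leaf senescence and defence, had 8.29 and 8.59 in local and 5.66 and 5.02 in control leaves (difference 3.09 ± 0.20, adjusted p = 4.6e-05). WRKY22, which acts in pattern-triggered immunity, had 8.91 and 9.52 in local and 6.48 and 5.94 in control leaves (3.01 ± 0.23, adjusted p = 0.00010). The other 5 WRKY genes lay between -0.32 and 0.03, so these 7 did not move together. The family as a whole cannot be judged from them, since members without a matching name are not counted.

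Among 23 bZIP factors, 4 rose and 1 fell, and 4 of the 5 calls did not depend on any single array. HYH, a light-signalling relative of HY5, had 7.21 and 7.21 in local and 5.87 and 5.29 in control leaves (1.63 ± 0.17, adjusted p = 0.00042). BZIP60, a transcription factor of the unfolded protein response, had 10.24 and 9.99 in local and 8.75 and 8.79 in control leaves (1.35 ± 0.13, adjusted p = 0.00025). BZIP53, a factor of seed maturation and of amino acid metabolism under low energy, was higher by 0.95 ± 0.15. BZIP28, the other unfolded protein response factor, was higher by 0.50 ± 0.11 (adjusted p = 0.013), but its adjusted p was 0.065 without control replicate 1, 0.053 without local replicate 1 and 0.072 without local replicate 2. The gene at AT2G40620, named bZIP18 in the gene table, fell by 1.07 on the log2 scale. Another bZIP gene was called lower without local replicate 2.

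The 14 bHLH factors gave 1 rise and 3 falls, all 4 of which held with each array left out. bHLH104, a regulator of the iron deficiency response, rose by 0.53 ± 0.09. The fallers were ATMYC1, which acts in epidermal patterning (-1.40 ± 0.16), SPCH, which starts the stomatal lineage (-0.92 ± 0.10), and BIM1, a partner of brassinosteroid-responsive factors (-0.75 ± 0.12). ATMYC1 had 3.97 and 4.05 in local and 5.67 and 5.15 in control leaves, and its local levels lay below the lower quartile of the local arrays (4.41), so that the size of its fall may be understated. Without control replicate 1, and likewise after cyclic loess, the rises numbered 3 and 4. TINY2 of the AP2/ERF family was higher by 0.87 ± 0.17, with an adjusted p of 0.056 without local replicate 2.

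Calcium signalling genes matched by name divided by type. EF-hand sensors without a matching name are left out of the counts below. Of 8 measured EF-hand calcium sensors, all calmodulin-like, 4 rose, none fell and the median difference was 0.59, and all 4 calls held with each array left out. CML38 had 11.07 and 10.74 in local and 5.42 and 5.20 in control leaves (5.59 ± 0.19), CML37 had 7.23 and 7.30 in local and 3.88 and 3.81 in control leaves, and CML23 had 8.02 and 7.93 in local and 5.64 and 5.12 in control leaves. The control levels of CML37 were below the lower quartile, so its difference of 3.42 ± 0.10 may be understated. CML42, known from trichome branching, rose by 0.94 ± 0.15. CML41 had a mean of 4.86 in local and 5.86 in control leaves, which missed the threshold (adjusted p = 0.051) and passed it as a fall without control replicate 2 (adjusted p = 0.00064), with the replicate block (0.034), after median centring (0.045), with trended variance (0.039), with probe sets under the 25th percentile of mean level left out (0.047) and over probe sets with 1 listed gene (0.040). Over the other alternatives its adjusted p was 0.072 to 0.19.

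The channels that carry the wound signal changed little at the transcript level. GLR2.7, a glutamate receptor-like channel gene, had 7.10 and 7.14 in local and 6.20 and 6.07 in control leaves (0.98 ± 0.09, adjusted p = 0.00029), the single call among 9 channel, pump and exchanger genes. GLR3.3 and GLR3.6, the channels known for long-distance wound signals, differed by 0.20 (adjusted p = 0.29) and -0.08 (adjusted p = 0.66). The IQD genes encode calmodulin-binding scaffold proteins, many of them on microtubules. Of 15 measured, 7 fell and 2 rose, with a median of -0.27, and 5 fell after cyclic loess. The fall of iqd21, with 7.17 and 7.63 in local and 8.51 and 8.49 in control leaves (-1.10 ± 0.19, adjusted p = 0.0044), and the rise of IQD23 (0.73 ± 0.11) held with each array left out. The other 7 calls did not: falls numbered 3 without control replicate 1, 4 without control replicate 2 and 2 without local replicate 1, and 1 rise was left without control replicate 2 or without either local array.

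Ubiquitin ligases of the U-box and RING types are enzymes that choose proteins for breakdown. Of 16 measured, 6 rose and 2 fell, and 7 of the 8 calls held with each array left out. PUB23 had 10.06 and 10.33 in local and 5.39 and 5.43 in control leaves, PUB19 had 10.03 and 9.84 in local and 5.59 and 5.61 in control leaves, and PUB22 had 8.31 and 8.80 in local and 5.04 and 5.21 in control leaves. These are rises of 27.7-fold, 20.2-fold and 10.8-fold. PUB22, PUB23 and PUB24 are known as brakes on pattern-triggered immunity, and PUB19 acts in drought signalling. PUB26 and PUB25, which mark the immune kinase BIK1 for breakdown, rose by 1.24 ± 0.16 and 1.21 ± 0.16, while BIK1 itself differed by 0.12 (adjusted p = 0.40). PUB24 was higher by 0.76 ± 0.16 and lost its call without control replicate 1 (adjusted p = 0.056). Both fallers were RING proteins: XERICO, which raises abscisic acid levels, had 7.96 and 7.95 in local and 8.87 and 9.17 in control leaves (-1.07 ± 0.12), and BRH1, which brassinosteroids repress, had 8.41 and 8.34 in local and 9.31 and 9.63 in control leaves (-1.09 ± 0.12). The 8 members that were not called lay between -0.16 and 0.16, so the list was split between clear changes and differences near 0.

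A few bright genes of peptides and of receptors that watch the cell wall changed. The share called was 22.2% of the 18 peptide genes and 16.7% of the 6 receptor-like kinases, against 21% of all genes. The RALF peptides raise the pH outside the cell. RALFL33 had 12.43 and 12.45 in local and 10.87 and 10.69 in control leaves (1.66 ± 0.11, adjusted p = 4.6e-05), and RALFL22 had 10.83 and 10.85 in local and 9.14 and 9.30 in control leaves (1.62 ± 0.10, adjusted p = 3.5e-05). RALFL34 was lower, with 10.13 and 10.63 in local and 11.07 and 11.27 in control leaves (-0.79 ± 0.16, adjusted p = 0.010), a call lost without control replicate 2 (adjusted p = 0.055). Over all 18 peptide genes 2 rose, 2 fell and the median was -0.03, and 1 fall was left without control replicate 2 or without either local array. THE1, a receptor kinase that senses wall damage and is known as a receptor of RALF34, had 10.44 and 10.29 in local and 9.26 and 9.01 in control leaves (1.23 ± 0.13, adjusted p = 0.00043). It was the single call among 6 receptor-like kinases, and FER, the receptor of other RALF peptides, differed by -0.01 (adjusted p = 0.97). ATMPK8, a MAP kinase known from wound-induced oxygen radical control, rose by 0.70 ± 0.10.

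**Figure D2:**
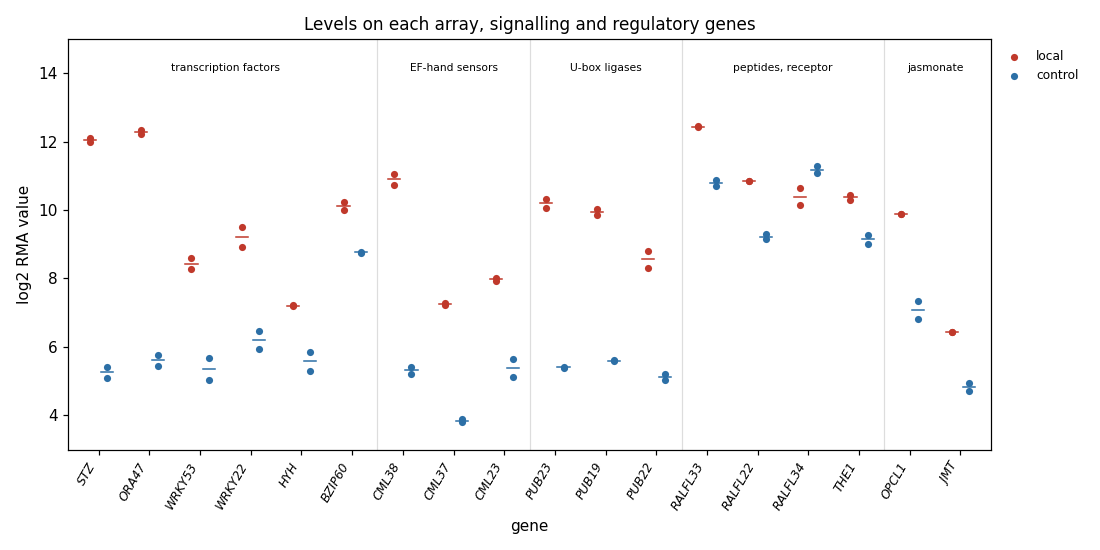
Log2 RMA values (vertical axis) of 18 signalling and regulatory genes (horizontal axis), with the 2 local arrays as red and the 2 control arrays as blue points and short lines at the group means. In 17 of the genes both local arrays lie above both control arrays, and in RALFL34 both lie below.

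Among hormone genes, 2 of 3 genes of jasmonate synthesis rose and none fell. OPCL1, a ligase that activates jasmonate precursors for shortening in peroxisomes, had 9.87 and 9.88 in local and 6.81 and 7.35 in control leaves (2.79 ± 0.22, adjusted p = 0.00012). JMT, which makes methyl jasmonate, had 6.42 and 6.42 in local and 4.70 and 4.96 in control leaves (1.60 ± 0.11, adjusted p = 6.7e-05). DGL, a lipase assigned to the pathway, was not called (0.08). Downstream, ORA47 was the single call among 9 genes of jasmonate signalling and output. The transcription factors MYC3 and MYC4 differed by 0.30 and 0.46 (adjusted p = 0.15 and 0.065), the thionin THI2.2 by -0.44 and the defensin PDF1.2 by -0.06. Without control replicate 1 the list gave 3 rises, and without local replicate 2 it gave 1 fall. Among salicylate genes GRX480, a glutaredoxin that salicylate induces, had 7.37 and 7.52 in local and 5.18 and 5.89 in control leaves (1.91 ± 0.24, adjusted p = 0.0010).

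The 21 auxin genes gave 2 rises and 3 falls. IAA29, an Aux/IAA repressor linked to shade-induced growth, had 5.68 and 5.71 in local and 7.10 and 7.93 in control leaves (-1.82 ± 0.24, adjusted p = 0.0012), and IAA18, a repressor of the same family, rose by 0.63 ± 0.10. GH3.3, which inactivates auxin by joining it to amino acids, fell by 0.67 on the log2 scale to local levels below the lower quartile. The other rise was lost without control replicate 1, without control replicate 2 or without local replicate 1, which left 1. EXO, a brassinosteroid-induced gene of leaf growth, had 12.62 and 12.36 in local and 9.20 and 8.52 in control leaves (3.63 ± 0.36, adjusted p = 0.00034). Of the 3 measured gibberellin receptors GID1A, GID1B and GID1C, GID1B alone was called, at -0.29 ± 0.09, and lost the call with every array left out (adjusted p between 0.12 and 0.16). None of 6 cytokinin response genes was called by limma, nor had any an unadjusted p under 0.05, and ARR15 and RR16, which cytokinin induces, differed by 0.22 and -0.07. In the abscisic acid list the dehydrin COR47 rose by 0.60 ± 0.10. LTI30, another dehydrin, had 5.23 and 5.62 in local and 9.10 and 6.53 in control leaves. Its difference of -2.39 ± 0.67 (adjusted p = 0.035) became -1.11 without control replicate 1 and -3.68 without control replicate 2, and it was not called without local replicate 1 (adjusted p = 0.17) or local replicate 2 (adjusted p = 0.094). Of the 12 genes of the list 1 rose and 2 fell, and no fall was left without either local array.

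Genes that loosen or rebuild the cell wall were split by family. Xyloglucan endotransglucosylases cut and rejoin the tethers between cellulose fibres. Of 10 measured XTH genes, 5 rose, none fell and the median was 0.25, and 4 of the 5 calls held with each array left out. XTH18 had 8.72 and 8.79 in local and 4.49 and 4.55 in control leaves (4.23 ± 0.38, adjusted p = 0.00021), and XTH33 had 8.57 and 7.54 in local and 6.08 and 5.97 in control leaves (2.03 ± 0.29, adjusted p = 0.0020). The 2 XTH33 values in local leaves differ by more than those of most genes, but both lie above control. EXGT-A3 and XTH32, both bright in control leaves, rose by 0.73 ± 0.12 and 0.69 ± 0.10. XTH19, a close relative of XTH18, differed by 0.12 (adjusted p = 0.86). How far probes of such similar genes share transcripts was not tested.

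Expansins loosen walls without cutting them, and 31.6% of those measured were called, against 21% of all genes. Of 19 measured expansin genes 3 rose and 3 fell, with a median of -0.04. The 3 rises were the 3 measured EXLA genes. EXLA1 had 11.93 and 11.73 in local and 9.21 and 9.66 in control leaves (2.40 ± 0.18, adjusted p = 8.8e-05), EXLA2 had 8.30 and 8.27 in local and 6.36 and 6.65 in control leaves (1.78 ± 0.14, adjusted p = 0.00011), and EXLA3 had 5.07 and 5.12 in local and 4.03 and 4.03 in control leaves (1.06 ± 0.09, adjusted p = 0.00016). The control levels of EXLA3 were below the lower quartile, so the size of its rise may be understated. The strongest fall was that of EXPA8, with 6.61 and 7.55 in local and 9.20 and 9.61 in control leaves (-2.32 ± 0.27, adjusted p = 0.00079). EXPB3 (-0.61 ± 0.13) and EXPA15 (-0.56 ± 0.15) were lower too but lost their calls without control replicate 2 (adjusted p = 0.063 and 0.13) or local replicate 1 (adjusted p = 0.10 and 0.13), and EXPA15 also without local replicate 2 (adjusted p = 0.094).

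The other wall families had smaller changes. CSLC04, a synthase of the xyloglucan backbone, had 10.67 and 10.67 in local and 9.63 and 9.87 in control leaves (0.92 ± 0.17) and was 1 of 2 rises among 12 polysaccharide synthase genes, of which none fell. The other, GAUT15 of pectin synthesis, held only without control replicate 2. The TBL proteins acetylate wall polysaccharides. Of 23 measured TBL genes 4 rose and 5 fell, and 3 of the 9 calls held with each array left out. These were TBL26, with 9.23 and 9.40 in local and 6.99 and 7.67 in control leaves (1.98 ± 0.20), TBL28 (0.60 ± 0.10) and TBL39, with 5.38 and 5.43 in local and 6.44 and 6.48 in control leaves (-1.06 ± 0.09). With any 1 array left out 2 rises were left, and the falls numbered 3 without control replicate 1, 1 without local replicate 1 and 2 without either of the other arrays. After cyclic loess the TBL list gave 4 rises and 3 falls. In the GH9 family of endoglucanases none of 15 rose and 3 fell, of which GH9B13 (-0.73 ± 0.13) held with each array left out and was the single fall without control replicate 1, control replicate 2 or local replicate 1. The GH9 list gave 1 rise and 1 fall after cyclic loess and 5 falls with the replicate number as a block. Of 5 pectin-modifying genes, ATPMEPCRB was higher and PME61 lower, and neither call held with each array left out. ATPMEPCRB had 6.29 and 7.21 in local and 5.93 and 5.54 in control leaves, and its difference of 1.02 became 0.56 without local replicate 2.

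**Figure D3:**
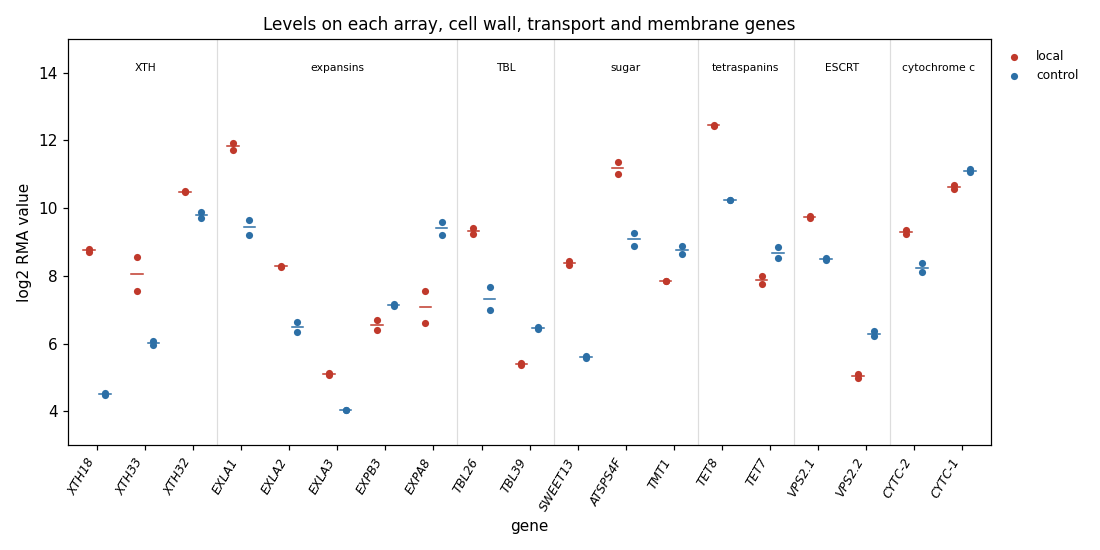
Log2 RMA values (vertical axis) of 19 genes of the cell wall, sugar metabolism and transport, tetraspanins, VPS2 subunits and cytochrome c (horizontal axis), with the 2 local arrays as red and the 2 control arrays as blue points and short lines at the group means. Members of 1 family lie above control in some cases (EXLA1, TET8, VPS2.1, CYTC-2) and below it in others (EXPA8, TET7, VPS2.2, CYTC-1).

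Glucosinolates are the mustard oil precursors of crucifers, and ER bodies are stores of β-glucosidases that act once a cell is broken. Of 35 measured genes of this list 6 rose and 10 fell, and 5 of the 16 calls held with each array left out. The strongest fall was that of PYK10, the main β-glucosidase of ER bodies, with 3.95 and 4.19 in local and 6.91 and 7.72 in control leaves (-3.25 ± 0.23, adjusted p = 6.5e-05). Its local levels lay below the lower quartile. NAI2, which is needed to form ER bodies, had 5.10 and 5.13 in local and 6.48 and 7.00 in control leaves (-1.62 ± 0.18, adjusted p = 0.00054). The jacalin-related lectin JAL34, a partner of PYK10 in extracts, was lower by more than 1 (-1.06 ± 0.24) but lost its call without control replicate 2 (adjusted p = 0.061) or local replicate 1 (adjusted p = 0.11). The glucosidase BGLU44 had 7.79 and 7.93 in local and 8.92 and 9.16 in control leaves (-1.18 ± 0.13).

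The rises of the same list included β-glucosidase genes as well. BGLU47 was higher by 1.14 (adjusted p = 0.0083 by limma), or by 0.90 without local replicate 1. GTR1, a glucosinolate importer, had 10.97 and 11.07 in local and 8.89 and 8.92 in control leaves (2.12 ± 0.12, adjusted p = 2.8e-05), while its partner GTR2 differed by 0.36 (adjusted p = 0.17). BGLU40 rose by 0.90 ± 0.11. UGT74B1, which adds the glucose of glucosinolates, was higher by 0.81 ± 0.17 and lost its call without control replicate 1 (adjusted p = 0.055) or local replicate 1 (adjusted p = 0.065). BCAT4, the first enzyme of methionine chain elongation, was higher by 0.72 ± 0.22 and lost its call with each array left out (adjusted p between 0.053 and 0.21). The counts of the list were 2 rises and 4 falls without local replicate 1, and 5 falls without control replicate 2.

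Of 12 phenylpropanoid and flavonoid genes 4 rose and 1 fell. CHIL, a helper of chalcone formation, had 9.25 and 9.64 in local and 8.03 and 8.15 in control leaves (1.36 ± 0.14, adjusted p = 0.00042), and UGT78D2, a flavonoid glucosyltransferase, rose by 0.75 ± 0.09. These 2 held with each array left out, and 2 rises were left without local replicate 2. DFR, of anthocyanin synthesis, had 4.46 and 4.29 in local and 5.34 and 7.19 in control leaves, with a local mean below the lower quartile. The control pools disagreed, its difference of -1.89 became -0.97 without control replicate 2, and the call was lost without local replicate 1 (adjusted p = 0.094) or local replicate 2 (adjusted p = 0.10). In enzyme families of general defence and detoxification the share called was below the 21% of all genes. It was 12.5% of cytochromes P450, 13.7% of glycosyltransferases, 14.3% of glutathione transferases and 11.1% of chitinase, glucanase and defensin genes. There were 1 rise and 2 falls among 24 cytochromes P450, and 3 rises and 4 falls among 51 glycosyltransferases. The 14 glutathione transferases gave 2 rises and no fall, and the 18 chitinase, glucanase and defensin genes no rise and 2 falls. A difference may have been missed in members below the lower quartile in both groups. These were 7 P450 genes, 13 glycosyltransferases, 6 glutathione transferases and 11 chitinase, glucanase and defensin genes. In that last list LCR69, of the defensin family, had 7.43 and 7.90 in local and 9.75 and 9.61 in control leaves (-2.02 ± 0.24, adjusted p = 0.00079), and it was the single fall without control replicate 1, control replicate 2 or local replicate 1. The P450 gene CYP71B36 rose by 0.97 ± 0.13 from control levels below the lower quartile, and both P450 falls were lost without local replicate 1 and 1 of them without local replicate 2. After cyclic loess the balance of both lists turned, with 3 rises and 1 fall among the P450 genes and 5 rises and 2 falls among the glycosyltransferases, which gave 5 and 2 after median centring too. Without control replicate 1 the P450 list gave 2 rises and 1 fall and the glycosyltransferases 7 rises, and the glycosyltransferase falls numbered 2 without either local array. GSTU28 rose by 0.63 ± 0.11, and it was the single rise of the glutathione transferases without local replicate 2. Among 12 peroxidase and radical-scavenging genes, the peroxidase gene at AT5G64120, PRX71 in the gene table, had 6.32 and 6.23 in local and 4.96 and 5.15 in control leaves (1.22 ± 0.11), and CCS, which loads copper into superoxide dismutase, had 7.17 and 7.39 in local and 8.55 and 8.29 in control leaves (-1.14 ± 0.13). Another rise in that list was called without control replicate 2 and another fall without local replicate 2.

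Tubulin and cell cycle lists gave falls and no rise, while other lists of cytoskeleton genes gave both. Of 14 genes named for a TON1 recruiting motif, known from microtubule arrays, 2 rose and 1 fell, and none of these calls held with each array left out. Of 9 tubulin and actin genes 5 fell, none rose and the median was -0.53, against -0.03 for all genes. TUA6 had 10.88 and 11.08 in local and 11.86 and 11.91 in control leaves (-0.90 ± 0.12, adjusted p = 0.0016), TUB1 had 4.82 and 4.71 in local and 5.97 and 5.95 in control leaves (-1.19 ± 0.12, adjusted p = 0.00038), and TUB5 had 9.50 and 9.57 in local and 10.16 and 10.16 in control leaves (-0.63 ± 0.09, adjusted p = 0.0022). These 3 held with each array left out, and they were the falls left without control replicate 2 or local replicate 1. TUB9 and TUA1 differed by -0.18 and 0.13 and ACT11 by -0.05, all without a call, so not every tubulin fell.

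Of 8 cell cycle and division genes 5 fell and none rose. PRL, the MCM7 subunit that licenses DNA for replication, had 5.56 and 6.44 in local and 7.76 and 7.51 in control leaves (-1.63 ± 0.26, adjusted p = 0.0034). The aurora kinases, which act in mitosis, all fell: AUR2 by 1.01, AUR1 by 0.89 and AUR3 by 0.60 on the log2 scale (SE 0.10 each). AUR1 had 5.71 and 5.57 in local and 6.56 and 6.49 in control leaves, whereas the local levels of AUR3 were 4.40 and 4.41, at the lower quartile. They are also the markers of dividing cells, and the part of such cells in these results was not tested. The fifth call, SIM, an inhibitor of mitosis, was lost without control replicate 2 (adjusted p = 0.21), local replicate 1 (adjusted p = 0.085) or local replicate 2 (adjusted p = 0.22). FBL17, an F-box protein that clears cell cycle inhibitors, had 6.67 and 7.33 in local and 7.90 and 7.93 in control leaves (-0.92 ± 0.19, or -0.59 without local replicate 1).

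Lists of chromatin and DNA genes gave falls and no rise with the deposited values, and in DNA repair the share called was below that of all genes. Of 10 histone and chromatin genes 5 fell and none rose, with a median of -0.54. Only HON4, which has a linker histone domain, held with each array left out, with 8.29 and 8.28 in local and 9.24 and 9.08 in control leaves (-0.88 ± 0.10, adjusted p = 0.00061). The 4 other calls, 3 H2B genes and the centromeric histone HTR12, had differences of -0.40 to -0.56, and without control replicate 1 or local replicate 1 HON4 was the single fall. After cyclic loess 3 falls were left. Among 19 chromatin remodelling genes 5 fell and none rose, with a median of -0.07. ASF1B, a histone chaperone, fell by 0.84, CHR17, a remodeller of the ISWI type, by 0.67, and BSH, a subunit of SWI/SNF complexes, by 0.64 on the log2 scale, and these 3 were left without control replicate 1 or without either local array, and after cyclic loess, which gave 1 rise as well. Among 24 DNA repair and recombination genes 4 fell and none rose, which is 16.7% called, against 21% of all genes, and the median was -0.10. TOPII, the topoisomerase that untangles chromosomes, had 4.36 and 4.62 in local and 6.78 and 5.96 in control leaves (-1.89 ± 0.23, adjusted p = 0.0010), and 2 falls were left without control replicate 1 or without either local array.

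**Figure D4:**
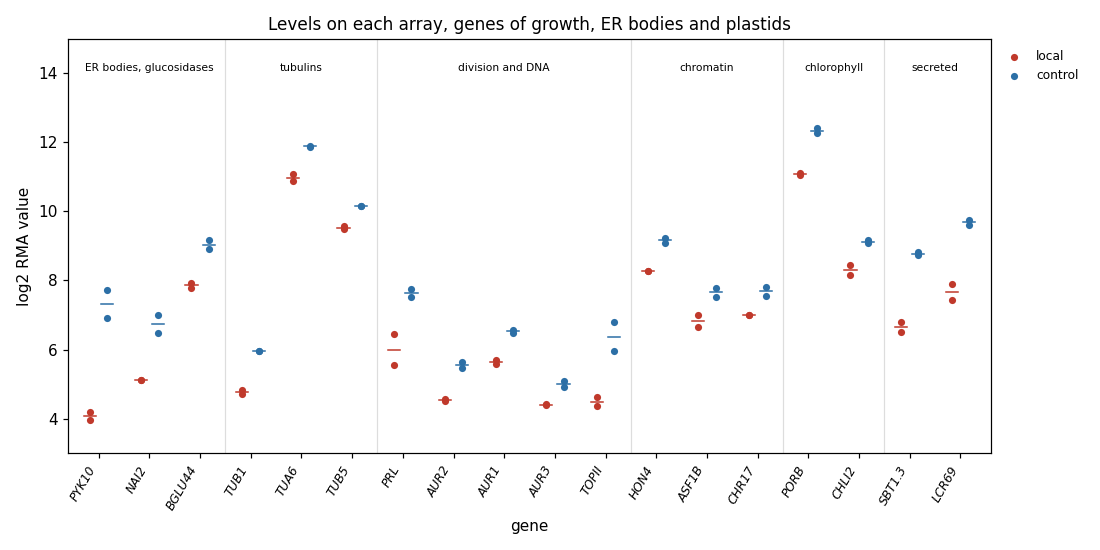
Log2 RMA values (vertical axis) of 18 genes of ER bodies, microtubules, division, chromatin, chlorophyll synthesis and secreted proteins (horizontal axis), with the 2 local arrays as red and the 2 control arrays as blue points and short lines at the group means. In all 18 genes, which were picked for their falls, both local arrays lie below both control arrays.

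Photosynthesis genes were among the brightest and gave few calls. Of 12 nuclear genes of light harvesting and the photosystems 1 fell, ATPC2 of the chloroplast ATP synthase (-0.46 ± 0.14, adjusted p = 0.047), and it was not called with any array left out (adjusted p between 0.069 and 0.19) or after cyclic loess. The other 11 differed by -0.10 to 0.23. Of 69 plastid-encoded genes 2 rose and none fell, with a median of 0.04. The 2 were ndhJ (0.59 ± 0.17) and atpI (0.51 ± 0.12), and the counts changed to 6 rises and 1 fall without control replicate 1, no rise and 1 fall without control replicate 2, no rise without local replicate 1 and 1 rise without local replicate 2. The chlorophyll pathway gave larger differences. PORB, which makes chlorophyllide in the light, had 11.05 and 11.12 in local and 12.26 and 12.41 in control leaves (-1.25 ± 0.13, adjusted p = 0.00050), and CHLI2, a magnesium chelatase subunit, had 8.15 and 8.45 in local and 9.16 and 9.08 in control leaves (-0.82 ± 0.13, adjusted p = 0.0033). HEMA2, at the first step of the same pathway, rose, with 8.14 and 7.93 in local and 6.82 and 6.76 in control leaves (1.24 ± 0.14, adjusted p = 0.00071). All 3 held with each array left out.

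Of 16 mitochondrion-encoded genes, 5 rose and none fell, with a median of 0.26. Among the rises, nad1 was called on its brightest probe set alone (0.45 ± 0.11). Its other probe sets differed by -0.15 to 0.43. The rise of matR (0.33) did not hold with any array left out, and was 0.26 without local replicate 1. The complex I genes nad4L, with 6.59 and 6.51 in local and 5.58 and 5.74 in control leaves (0.90 ± 0.10, adjusted p = 0.00058), and nad9, with 7.11 and 7.07 in local and 6.29 and 6.23 in control leaves (0.83 ± 0.09, adjusted p = 0.00048), held with each array left out. Without control replicate 1 or local replicate 2 there were 3 rises, and without local replicate 1 there were 2. Transcripts of organelles mostly lack poly(A) tails, and the RNA was labelled by amplification from the 3′ end. How evenly such transcripts were captured was not tested.

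The nuclear genes of respiration divided between rises and falls. Of 26 genes of the tricarboxylic acid cycle and respiratory chain 4 rose and 7 fell, with a median of -0.24 (-0.15 after cyclic loess). The cytochrome c gene CYTC-2 had 9.36 and 9.23 in local and 8.38 and 8.10 in control leaves (1.05 ± 0.12, adjusted p = 0.00069), while CYTC-1 had 10.57 and 10.70 in local and 11.15 and 11.08 in control leaves (-0.48 ± 0.10, adjusted p = 0.0094, or 0.075 without local replicate 1). NDB2, an external NAD(P)H dehydrogenase, had 7.81 and 7.89 in local and 7.13 and 6.70 in control leaves (0.93 ± 0.15). ACLA-2, a subunit of the ATP citrate lyase that supplies acetyl-CoA, had 6.67 and 6.99 in local and 7.96 and 8.03 in control leaves (-1.17 ± 0.13, adjusted p = 0.00049), and ETFBETA, which passes electrons from amino acid breakdown to the chain, fell by 0.75. Rises numbered 2 without either control array or local replicate 1, and falls numbered 3 without local replicate 1 and 4 without local replicate 2.

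Sugar genes gave both rises and falls. The share called was 33.3% of 9 metabolism genes and 26.3% of 19 transporters, against 21% of all genes. ATSPS4F, a sucrose phosphate synthase, had 11.36 and 11.02 in local and 9.28 and 8.89 in control leaves (2.11 ± 0.16, adjusted p = 0.00010), and APL3, a subunit of the enzyme that commits glucose to starch, had 7.20 and 6.96 in local and 6.03 and 5.80 in control leaves (1.16 ± 0.12). AKINBETA1, a subunit of the energy-sensing kinase SnRK1, had 8.82 and 8.78 in local and 9.66 and 9.88 in control leaves (-0.97 ± 0.11). These were the calls among 9 sugar, starch and trehalose genes, and another fall was called without control replicate 2. Of 19 sugar transporters 3 rose and 2 fell. The sucrose exporter SWEET13 had 8.44 and 8.33 in local and 5.57 and 5.63 in control leaves (2.78 ± 0.09, adjusted p = 5.1e-06), and SWEET2 of the vacuole rose by 0.46 ± 0.09. SWEET11 was higher by 0.79 ± 0.16 and lost its call without local replicate 2 (adjusted p = 0.059). TMT1, which loads sugar into the vacuole, had 7.86 and 7.84 in local and 8.63 and 8.88 in control leaves (-0.91 ± 0.11). SAG29, also a SWEET transporter, had 4.85 and 4.89 in local and 6.64 and 5.34 in control leaves. Its difference of -1.11 was -0.46 without control replicate 1 and -1.76 without control replicate 2, and its call was lost without either local array (adjusted p = 0.18 and 0.14), which left 1 fall.

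Of 12 genes for transport of nitrate and related solutes, all but 1 of them NPF genes, 4 rose and none fell, and all 4 held with each array left out. Besides GTR1 they were at AT1G59740 (NPF4.3 in the gene table, 0.96 ± 0.09), AT3G21670 (NPF6.4, 0.70 ± 0.11) and AT2G26690 (NPF6.2, 0.61 ± 0.09). NPF6.4 and NPF6.2 were bright in both groups, with means of 11.77 and 11.13 in local and 11.07 and 10.52 in control leaves. A fall in this list was called without control replicate 2. The steepest transporter rise was at AT5G52050, DTX50 in the gene table and a MATE efflux carrier, with 10.90 and 10.98 in local and 5.57 and 5.16 in control leaves (5.57 ± 0.39). None of 6 measured genes of the CHX cation exchanger family was called by limma, nor had any an unadjusted p under 0.05.

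Membrane traffic and cytoskeleton families contained members of opposite sign. Of 26 vesicle traffic genes 3 rose and 5 fell, and 6 of the 8 calls held with each array left out. ESCRT complexes bud vesicles into endosomes. Their subunit gene VPS2.1 had 9.78 and 9.71 in local and 8.52 and 8.48 in control leaves (1.24 ± 0.11, adjusted p = 0.00015), whereas VPS2.2 had 4.97 and 5.11 in local and 6.37 and 6.22 in control leaves (-1.25 ± 0.13, adjusted p = 0.00038) and VPS20.1 had 5.08 and 4.77 in local and 6.04 and 5.78 in control leaves (-0.98 ± 0.14). KEU, a fusion protein of the cell plate, and SEC15A, a subunit of the exocyst, fell by 0.48 and 0.66. Without control replicate 2 or without either local array VPS2.1 was the single rise. Of 11 prenylated RAB acceptors, which guide membrane traffic, PRA1.F1 had 5.37 and 5.16 in local and 6.51 and 6.31 in control leaves (-1.14 ± 0.12) and was the call among 3 that held with each array left out.

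Tetraspanins are membrane organisers. TET8, the marker of secreted vesicles, had 12.46 and 12.43 in local and 10.24 and 10.23 in control leaves (2.21 ± 0.16, adjusted p = 7.0e-05), TET3 rose by 0.74 ± 0.10, and TET7 had 7.76 and 7.98 in local and 8.52 and 8.85 in control leaves (-0.81 ± 0.14). These were the calls among 15 genes, and all 3 held. Among 10 NET genes, which link actin to membranes, NET4B of the vacuole had 8.51 and 8.50 in local and 7.33 and 7.05 in control leaves (1.32 ± 0.12), and NET1A had 3.76 and 3.66 in local and 5.20 and 4.75 in control leaves (-1.27 ± 0.15), with local levels below the lower quartile. The list gave 3 rises and 1 fall, and 1 rise was left without control replicate 2 or local replicate 1. Of the LIM proteins, which bundle actin, PLIM2a rose by 0.69 ± 0.12 and WLIM2a had 5.77 and 5.97 in local and 7.10 and 6.99 in control leaves (-1.18 ± 0.11).

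Protein turnover genes had mostly modest differences. Of 11 autophagy ATG genes 4 fell and none rose, with a median of -0.35 (-0.26 after cyclic loess, with 3 falls), and all 4 encode ATG8, the protein that coats autophagosomes. ATG8F had 9.90 and 9.97 in local and 10.64 and 10.51 in control leaves (-0.64 ± 0.10, adjusted p = 0.0026) and held with each array left out. The 3 others did not, and 2 falls were left without local replicate 1. Of 26 proteasome and ubiquitin genes 3 rose and 5 fell, among them the conjugating enzymes UBC29 (0.78 ± 0.11) and UBC20 (-0.90 ± 0.10), which alone held with each array left out. The counts were 1 rise and 2 falls without local replicate 1, 3 falls without control replicate 1 or after cyclic loess (with 4 rises after loess), and 2 falls without control replicate 2 or local replicate 2. Among 16 inhibitors and proteases of defence, the subtilase SBT1.3 had 6.51 and 6.80 in local and 8.73 and 8.81 in control leaves (-2.12 ± 0.14, adjusted p = 4.8e-05). It was the single call of 4 that held with each array left out. The other fall, SBTI1.1 (-1.09 ± 0.22), was lost without control replicate 1 or local replicate 1. Both rises, ATSBT5.2 and CYS1, were lost without local replicate 1, and 1 rise was left without either control array.

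Of 29 serine carboxypeptidase-like genes 4 rose and 5 fell, with a median of 0.00, and without local replicate 1 the counts were 2 and 2. The firm calls were scpl48 (0.90 ± 0.10), scpl20 (0.74 ± 0.10), SCPL45 (-0.70 ± 0.10) and scpl35 (-0.79 ± 0.10). Folding genes of the endoplasmic reticulum gave 1 rise and 3 falls among 15. The calreticulin gene CRT1b fell by 0.67, while ATCRT1, another calreticulin gene, was higher by 0.40 ± 0.09 and lost its call without local replicate 1 (adjusted p = 0.074) or local replicate 2 (adjusted p = 0.059). CRT1b was the single fall without local replicate 1. Of 8 chaperone and co-chaperone genes 3 rose and 2 fell. The fall of Fes1B (-0.77 ± 0.12) held with each array left out and was the single one without control replicate 1 or local replicate 1, while there was 1 rise without control replicate 2 or local replicate 2 and none without local replicate 1. Of 8 aldehyde dehydrogenases 1 rose and 2 fell. ALDH6B2, of branched amino acid breakdown, fell by 0.71 and was the single fall without either local array. ALDH7B4 had 8.27 and 8.02 in local and 10.37 and 8.95 in control leaves, and its difference of -1.51 was -0.80 without control replicate 1. The rise, ALDH2C4, was lost without local replicate 2 (adjusted p = 0.051).

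Among genes that make and process RNA, 18.75% of RNA polymerase and splicing genes were called, near the 21% of all genes. The share was 8.33% of LSM and mRNA decay genes. None of 15 pentatricopeptide repeat genes, which edit and process organelle RNA, was called by limma, and 4 had an unadjusted p under 0.05. Of 12 LSM and mRNA decay genes, LSM1A, of the complex that starts decapping, had 8.99 and 8.97 in local and 9.50 and 9.49 in control leaves (-0.52 ± 0.09, adjusted p = 0.0057), and another fall was called without control replicate 2. Of 16 RNA polymerase and splicing genes 1 rose and 2 fell. NRPC2, the second largest subunit of RNA polymerase III, had 6.23 and 6.13 in local and 6.94 and 6.79 in control leaves (-0.69 ± 0.10, adjusted p = 0.0022) and was the single fall without local replicate 1. The rise, NRPB7, was lost without either control array or without local replicate 2. GI, a gene of the circadian clock and of flowering time, had 8.48 and 8.07 in local and 6.85 and 6.83 in control leaves (1.43 ± 0.16).

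**Figure D5:**
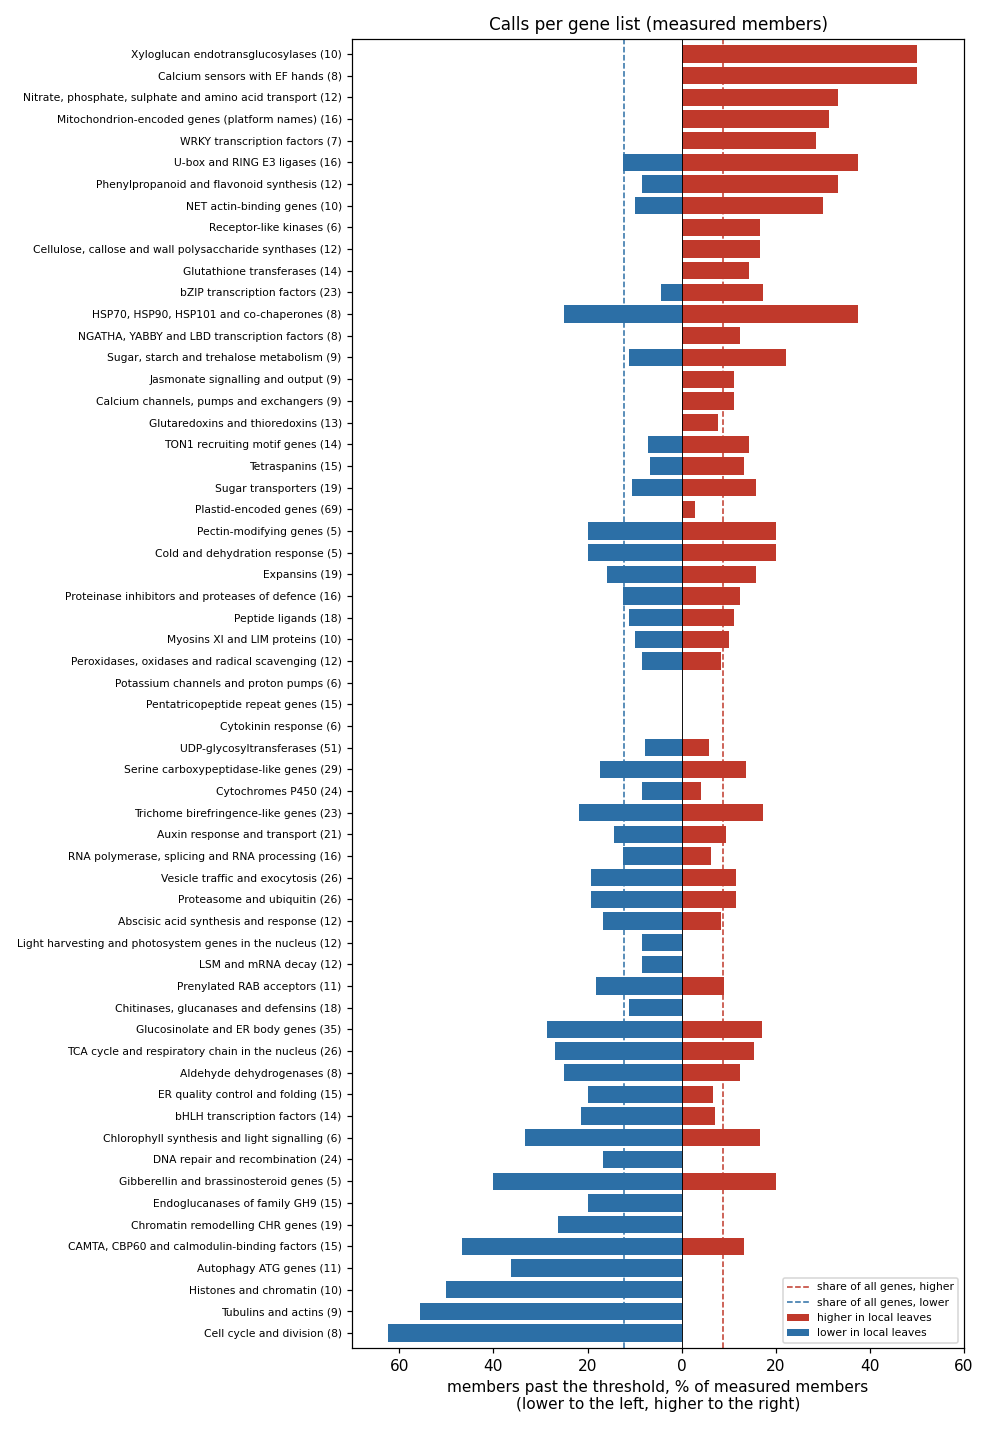
Percent of the measured members of each gene list (rows, with the number of measured members in brackets) called higher (red, to the right of 0) or lower (blue, to the left of 0) in local leaves, for all 60 lists with at least 5 measured members. Dashed lines mark the shares over all 13355 genes, 8.72% higher and 12.2% lower. Lists are ordered by percent higher minus percent lower, with cell cycle, tubulin, histone and autophagy genes at the bottom.

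Calls were also set along the chromosomes, using the gene order of the TAIR10.1 annotation. In 5845 pairs of neighbouring genes both were measured, and both rose in 83, both fell in 139 and 1 rose while the other fell in 142. Of the measured neighbours of genes that rose, 15% rose too, against 9.50% of the measured neighbours of any gene. Of the neighbours of genes that fell, 17.6% fell too, against 13.5%. These shares are descriptions without a test, since neighbours that are copies of 1 gene may share probes.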

How the data were processed

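Leaf pools gave 6 µg of total RNA per array, and one-cycle amplification from the 3′ end preceded biotin labelling and hybridisation to Affymetrix arrays (per the labels' protocols). The authors deposited log2 levels of probe sets, made with RMA, with Affymetrix Expression Console also named, per the submitters' processing notes (versions are not given in the sources used here). RMA sets all arrays to 1 distribution, so a shift of all transcripts in 1 direction would not be seen, and it compresses dim differences.

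Of 22810 probe sets, 64 controls were left out and 22746 were tested without a filter. Genes were named from the platform annotation, updated with a TAIR10.1 gene table: 13513 probe sets had 1 gene (13436 matched by Entrez number, 48 by locus, 29 with the platform's name), 503 had several and 8730 none listed, and only the first kind were named. No coordinates or sequences are given, since no genome was used here.

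For local minus control, limma 3.58.1 (R 4.3.3) fitted 1 mean for each group to the 6 arrays together, which share 1 estimate of the spread with 3 residual and 4.85 prior degrees of freedom. The test was two-sided, had no replicate block, and used Benjamini-Hochberg adjustment and a threshold of 0.05. Lists were matched by symbol or description, 1 probe set per gene (the brightest), and are described by counts and medians without a set test. The members and lists were chosen with earlier results of these data known, and 17 of the 60 lists with at least 5 members were added after the measured gene names were seen. A further list is not reported here. Matches resting on another meaning of a name were also removed by name after the files were seen, which took 68 matches out of the lists that remained and left 7 other lists empty or replaced. Named genes were ranks 1 to 40 of the rises and 1 to 30 of the falls (1 gene, adjusted p under 0.05, groups apart), and in each list up to 5 rises, up to 5 falls and up to 3 bright uncalled members, beside marker genes. The fit was tested on simulated data first. Alternatives were cyclic loess, median centring, the replicate block, leaving out dim probe sets, other variance moderation, 4 arrays only, probe sets with 1 gene only, averaging the probe sets of a gene, and each array left out.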

Additional observations from a re-analysis of the deposited data

How the results depend on the processing

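With each of the 4 arrays left out in turn, rises numbered 1437 to 2008 and falls 1386 to 2388, against 2257 and 3117 with all arrays, and rises made up 41.8% to 50.9% of the calls. A group of 1 array was then assumed to vary like the others. Testing the probe sets with 1 listed gene alone gave 1180 rises and 1671 falls, and 384 and 167 of at least 2-fold, since fewer probe sets were tested. Median centring gave 2449 rises and 2718 falls and cyclic loess 2806 and 2315, and the median difference of all probe sets was -0.04 with the deposited values, -0.00 after centring and 0.00 after loess. The replicate numbers do not state a pairing. Deviations of same-numbered local and control arrays from their group means correlated at 0.14 over probe sets, and with the replicate number as a block there were 2373 rises and 3329 falls. Of 320 named genes past the threshold 200 were past it with each array left out and under all other alternatives that kept their probe set, and none turned its direction. Of the counts of rises and of falls per list, 21 differed by over 1.5 times after cyclic loess, 9 after centring, 12 with the replicate block, 13 over the local and control arrays alone, 34 with probe sets under the median level left out, at most 7 under each of the other alternatives to the test, and 29 to 50 differed with 1 array left out. The planned comparison of promoter motifs and protein lengths was not run, since no sequences were used here. In dim probe sets, where few calls were made, a difference may have been missed.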

Other observations

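Outside the lists, 22 genes with a symbol changed at least 2-fold, 8 higher and 14 lower in local leaves, and those described here were chosen after their values were seen. AR781 had 10.53 and 10.78 in local and 7.24 and 7.83 in control leaves (3.12, adjusted p = 4.6e-05 by limma). SRC2, a small membrane protein with a calcium-binding C2 domain, had 12.96 and 13.14 in local and 10.65 and 10.73 in control leaves (2.36), and PTI1-4, a kinase gene, had 10.36 and 10.42 in local and 8.32 and 8.73 in control leaves (1.86). PPDK, the pyruvate orthophosphate dikinase, was higher by 1.01, and so was PYE, a bHLH regulator of iron deficiency, by 1.01. Among the falls, P1R1 had 5.54 and 5.78 in local and 8.17 and 8.31 in control leaves (-2.58, adjusted p = 1.4e-05). The chromosome protein gene 3xHMG-box2 had 4.58 and 4.49 in local and 6.96 and 6.05 in control leaves (-1.97). POLA3, a gene of DNA polymerase α and primase, had 5.90 and 6.68 in local and 7.39 and 7.19 in control leaves. The POLA3 call was lost without control replicate 1 (difference -0.90) or local replicate 1 (difference -0.61). HMT-1, which makes methionine from homocysteine, had 4.82 and 4.88 in local and 6.50 and 6.80 in control leaves (-1.80), and MCCA, of leucine breakdown, had 6.56 and 6.68 in local and 8.01 and 8.14 in control leaves (-1.46).

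Several families held relatives of opposite sign, each past the threshold: VPS2.1 (1.24) and VPS2.2 (-1.25), CYTC-2 (1.05) and CYTC-1 (-0.48), RALFL33 (1.66) and RALFL34 (-0.79), TET8 (2.21) and TET7 (-0.81), UBC29 (0.78) and UBC20 (-0.90), PLIM2a (0.69) and WLIM2a (-1.18). These were picked after their values were seen, and a family-wide count of such cases was not made.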
